A study of Homo sapiens with 15 samples.

Results

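The miR-23b/27b/24-1 cluster is a group of 3 microRNA (miRNA) genes that lie beside each other on the plus strand of chromosome 9 and are made from a shared primary transcript. The members were taken by gene name, as MIR23B, MIR27B and MIR24-1, which are 3 of the 50037 genes in the count table and 3 of its 2139 miRNA genes. MIR23B and MIR27B had counts in all 15 libraries and passed the filter on low counts, while MIR24-1 had a count of 0 in every library. Small RNA was sequenced from cells labelled HEK-293, a human embryonic kidney line, of wild-type genotype, after 18 h of treatment. The 5 libraries of the first group came from cells given very low-density lipoprotein (VLDL group, titled pcDNA:VLDL, with no statement of what pcDNA was). The second group of 5 received the products of VLDL lipids cut by lipoprotein lipase (LPL:VLDL group). The third group of 5 received these products together with 20 µM GKT136901, which blocks the NADPH oxidases NOX1 and NOX4 (GKT136901 group). Each group had 1 library from each of 5 experiments, which the labels number 2 to 6 as batches.

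A clustered miRNA transcript is cut in the nucleus by Drosha and DGCR8 into hairpins, and Dicer then trims each hairpin to a short duplex, of which a strand is loaded into an Argonaute protein. The loaded miRNA pairs with messenger RNAs mainly through its seed, the short stretch near its 5′ end, and lowers their translation and stability. miR-27 is known as a regulator of lipid metabolism and of fat cell formation, miR-23 as a regulator of cell metabolism and of blood vessel growth, and miR-24 as a regulator of cell division and of apoptosis. Members of a cluster share transcription but can differ in how well their hairpins are cut, in stability and in how readily a sequencing library captures them.

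The mature 3′ arms of the members are shown first, since they fix which mRNAs a member can pair with and which reads can be told apart from those of related genes. Seed bases 2 to 8 are in capitals, and all sequences are from RefSeq (GRCh38.p14), where all 3 members were found.
miR-23b-3p: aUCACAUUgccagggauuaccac
miR-27b-3p: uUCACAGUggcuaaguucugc
miR-24-3p: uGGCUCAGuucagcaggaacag
The seeds of miR-23b-3p and miR-27b-3p differed by 1 base (U7G, counted from the 5′ end of the mature miRNA), and the seed of miR-24-3p was unlike both. RefSeq holds 3 mature human miRNAs with the seed of miR-23b-3p (miR-23a-3p, miR-23b-3p and miR-23c) and 3 with the seed of miR-27b-3p (miR-27a-3p, miR-27b-3p and miR-9985). The seed of miR-24-3p belonged to 1 mature name, which is made from 2 genes, MIR24-1 and MIR24-2.

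The closest relatives lie in the paralogous cluster on chromosome 19 (MIR23A, MIR27A and MIR24-2) and on the X chromosome (MIR23C). Their 3′ arms are shown because they limit how a read can be assigned to a single gene.
miR-23a-3p: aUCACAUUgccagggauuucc
miR-23c: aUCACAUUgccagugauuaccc
miR-27a-3p: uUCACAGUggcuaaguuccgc
miR-23a-3p and miR-23b-3p shared their first 18 bases and differed over their common length by 1 substitution, A19U. miR-27a-3p and miR-27b-3p also shared their first 18 bases and differed by 1 substitution, U19C. miR-23c differed from miR-23b-3p by 2 substitutions, G14U and A22C. Shorter reads that end before these bases fit both relatives, and reads that map to several places were not counted.

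The hairpins show where on each precursor the arms sit. In the following sequences the capitals mark the 5′ and 3′ mature arms.
MIR23B: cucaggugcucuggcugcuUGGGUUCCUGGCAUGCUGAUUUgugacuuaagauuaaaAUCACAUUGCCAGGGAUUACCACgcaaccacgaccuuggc
MIR27B: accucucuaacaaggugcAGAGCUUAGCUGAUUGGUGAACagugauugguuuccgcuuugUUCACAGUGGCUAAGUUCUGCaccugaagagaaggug
MIR24-1: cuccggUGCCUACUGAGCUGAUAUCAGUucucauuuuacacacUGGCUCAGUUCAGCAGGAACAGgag
The counts are per gene, so both arms of a hairpin were counted together. The share of a member's counts that came from its 3′ arm, which carries the seeds compared above, is not given by the table.

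On hg38, MIR23B is annotated at chr9:95085208-95085304 and MIR27B at chr9:95085445-95085541, each 97 bases long, with 140 bases between them. MIR24-1 is annotated at chr9:95086021-95086088, is 68 bases long and starts after a further gap of 479 bases, so the cluster spans 881 bases. All 3 lie within AOPEP (chr9:94726699-95150224, plus strand), which encodes an aminopeptidase. MIR23B and MIR27B overlapped no exon of another listed gene and are therefore intronic in AOPEP. All 68 bases of MIR24-1 lay inside an AOPEP exon (chr9:95085930-95086119) and all 68 also lay inside MIR3074, an 81-base miRNA gene on the minus strand (chr9:95086014-95086094).

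**Figure D1:**
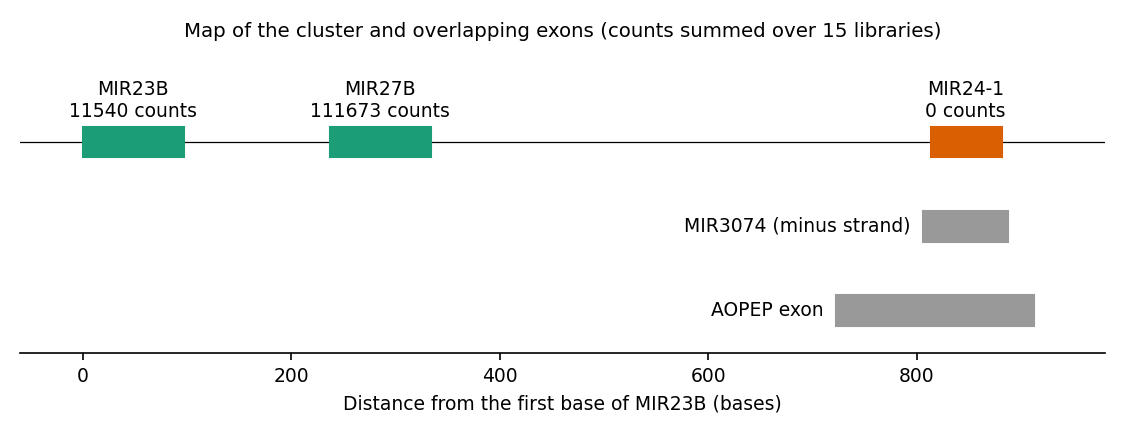
Map of the cluster, with distance in bases on the horizontal axis and the annotated genes and AOPEP exon as boxes. MIR23B and MIR27B stand free of other exons, whereas MIR24-1 lies wholly under both the AOPEP exon and the antisense MIR3074.

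MIR24-1 could not be measured in these counts. It had 0 counts in all 15 libraries, and so did MIR3074. A count of 0 would allow up to 3 counts, or a CPM (the count scaled to a library of fixed size) of 0.307 to 0.591 by library, but this limit holds only for reads that the counting would have kept. Per the file header, featureCounts was run with no option for overlapping genes, for strand or for multiply mapped reads, so a read in an exon of more than 1 gene is given to none of them. The 0 therefore says nothing about the level of miR-24-3p, whose sequence is also identical in MIR24-1 and MIR24-2. The paralogs could not serve as a comparison either, because MIR23A, MIR27A and MIR24-2 lay wholly inside an exon of MIR23AHG and each had 0 counts. MIR23C, which overlapped no other exon, had 3 counts in all, 1 in each group. The host gene AOPEP had 78 counts over all libraries (17, 40 and 21 in the VLDL, LPL:VLDL and GKT136901 groups) and did not pass the filter on low counts. Of 21 listed genes within 500 kb of the cluster, 10 had a count and 2 passed the filter, which were MIR23B and MIR27B themselves.

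Libraries held 5076917 to 9757123 counts, of which 30.2% to 48.7% were on miRNA genes. The label HEK-293 was set beside marker genes. HEK-293 markers were low, with 266 counts over 16 genes and a summed level of 0.951 to 3.24 CPM of the total count. HOXA9 (127 counts) and CKB (75) had the most, 1 gene passed the filter on low counts, and 4 were at 0, among them LHX1 and NEFM. Fragments of myeloid cell mRNAs summed to 27.1 to 125 CPM over 18 genes, of which 9 passed the filter and 2 (AIF1 and C1QA) were at 0. Most of these counts were on CSF1R (1771), ITGB2 (1382), SPP1 (1316) and LAPTM5 (935). The macrophage and monocyte markers CD68, CD14, LYZ and MRC1 had 56, 31, 30 and 4 counts and did not pass. The series title speaks of macrophages. mRNA reads in a small RNA library are fragments, so these sums give no share of cells, and the cells are called here by their label. In bulk libraries, fewer cells of a type and less RNA per cell cannot be told apart.

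MIR27B was the more abundant member in every library, at 9.82 times the count of MIR23B on average. The VLDL libraries of experiments 2 to 6 had MIR27B levels, as CPM scaled by TMM factors (trimmed mean of M values, which set libraries on a common scale), of 452, 849, 829.7, 993 and 1026. The LPL:VLDL libraries in the same order had 424, 846, 971, 1056 and 1004, and the GKT136901 libraries 443, 846, 936, 1104 and 1101. The library of experiment 2 was the lowest in each group, and the 3 groups overlapped over nearly their whole range. The mean MIR27B level was 829.9 ± 228 TMM-scaled CPM in the VLDL group, 860.2 ± 256 in the LPL:VLDL group and 886 ± 271 in the GKT136901 group (SD, n = 5 each).

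MIR23B gave TMM-scaled CPM of 51.5, 96.9, 78.2, 79.8 and 86.7 in the VLDL libraries of experiments 2 to 6. The LPL:VLDL libraries had 67.2, 95.7, 96.3, 106 and 82.4, and the GKT136901 libraries 63.2, 70.8, 126, 106 and 103. The library of experiment 2 was again the lowest of each group, and the groups overlapped. The mean MIR23B level was 78.6 ± 16.9 TMM-scaled CPM in the VLDL group, 89.5 ± 15.01 in the LPL:VLDL group and 93.6 ± 26.1 in the GKT136901 group (SD, n = 5 each). The counts behind these levels were 352 to 1162 per library for MIR23B and 4206 to 9667 for MIR27B.

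**Figure D2:**
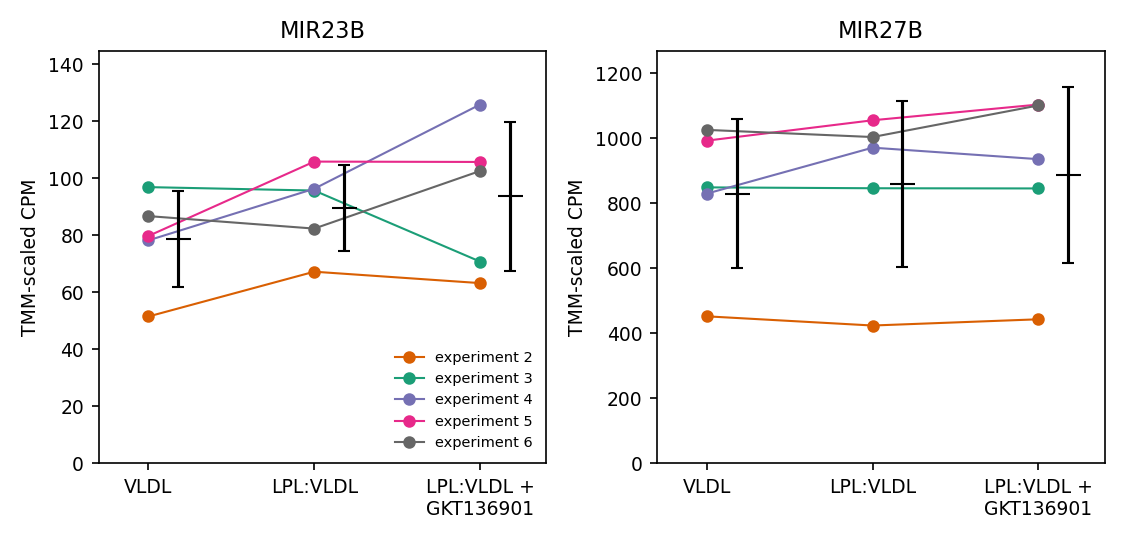
TMM-scaled CPM (vertical axes, linear, each from 0) of MIR23B and MIR27B in separate panels by treatment group, with coloured lines joining the libraries of an experiment and black bars at the group means with SD (n = 5). Experiment 2 is the lowest point of each group for both genes, at 51.5 to 67.2 for MIR23B and 424 to 452 for MIR27B.

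Per kilobase of gene length, MIR27B stood at 8852 ± 2421 and MIR23B at 899.5 ± 202 TMM-scaled CPM (SD, n = 15). Of the 291 miRNA genes tested, MIR27B ranked 29 and MIR23B ranked 71 by mean level per length, both above the median miRNA at 90.5 per kilobase. The 123213 counts of the cluster made up 0.238% of all miRNA counts. Equal gene length means that length does not enter the ratio of these 2 members.

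The ratio of MIR27B to MIR23B counts is free of library scaling, because both counts come from the same library. In the VLDL group it was 8.78, 8.76, 10.6, 12.4 and 11.8 in experiments 2 to 6. The LPL:VLDL libraries gave 6.30, 8.84, 10.1, 9.97 and 12.2, and the GKT136901 libraries 7.01, 11.9, 7.43, 10.4 and 10.7. MIR27B was thus at least 6.30 times MIR23B in all 15 libraries, and the group ranges overlapped. The exact binomial 95% interval, which covers counting error only, was 5.84 to 6.81 at the lowest ratio and 11.5 to 13.5 at the highest, so libraries differed by more than counting error. The mean ratio was 10.5 ± 1.70 in the VLDL group, 9.48 ± 2.15 in the LPL:VLDL group and 9.51 ± 2.17 in the GKT136901 group (SD, n = 5 each).

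**Figure D3:**
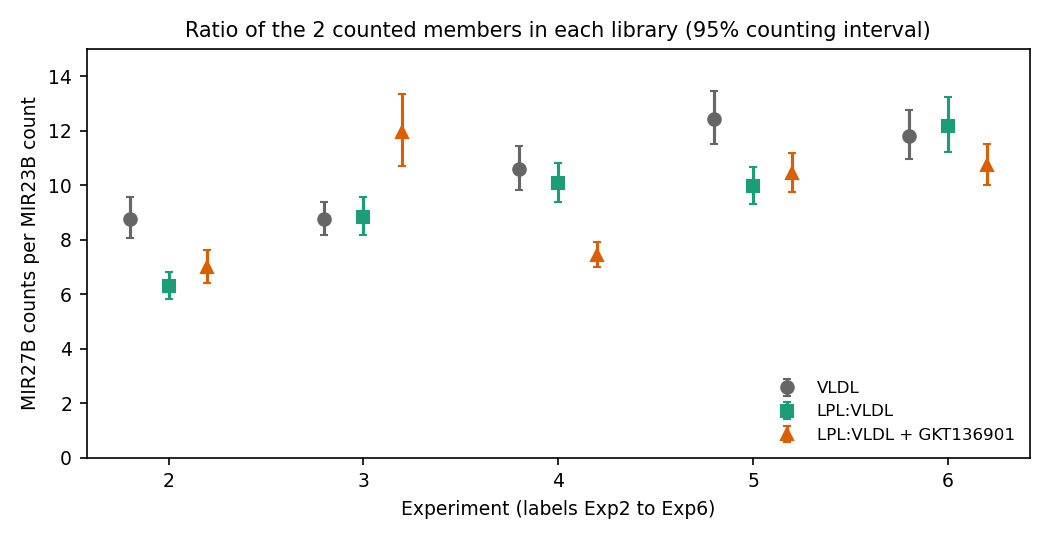
Ratio of MIR27B to MIR23B counts in each library (vertical axis) by experiment (horizontal axis), with colours for the treatment groups and exact binomial 95% intervals for counting error. The 15 ratios run from 6.30 to 12.4, and the 3 libraries of experiment 2 lie between 6.30 and 8.78.

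The balance of the members did not differ between treatments beyond the spread of libraries. With hydrolysis products against VLDL the mean log2 ratio was lower by 0.16, at 3.21 against 3.37 (exact permutation test of 5 against 5 libraries, two-sided, p = 0.405, adjusted over the 3 ratio comparisons 0.631). With the inhibitor against hydrolysis products alone the log2 ratio difference was 0.0059 (exact permutation p = 0.976, adjusted 0.976). With the inhibitor against VLDL it was -0.16 (exact permutation p = 0.421, adjusted 0.631). The smallest p this design allows is 0.00794. Paired within experiments, the ratio was higher in 2, 3 and 1 of 5 experiments in these comparisons (exact sign-flip permutation p = 0.25, 1.00 and 0.375, with 0.0625 the smallest possible).

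The study compares what VLDL lipid hydrolysis and oxidase inhibition do to small RNAs, and for each comparison the members were read from edgeR's quasi-likelihood F test fitted to all 4099 genes that passed the filter. No label states that the 5 experiments used separate cultures, so the p-values measure only how these libraries scatter, and that scatter may be technical. Hydrolysis products against VLDL gave calls for 0 of 2 members, where 0% of all tested genes were called. MIR23B had a log2 difference of 0.19 (SE 0.24, 95% interval -0.30 to 0.67, adjusted p = 0.999 by edgeR's quasi-likelihood test with Benjamini-Hochberg adjustment), and it was higher in 3 of 5 experiments. MIR27B had a log2 difference of 0.052 (SE 0.26, -0.48 to 0.58, adjusted p = 0.999 by the same edgeR test) and was higher in 2 of 5 experiments. At an unadjusted p under 0.05, 77 genes (1.88%) passed and neither member was among them. With the experiment as a block, 1 gene (0.0244%) was called and 172 (4.2%) passed unadjusted, and neither member was among these. DESeq2 and limma voom without the block also called 0 genes.

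Adding GKT136901 to the hydrolysis products also gave calls for 0 of 2 members (0% of tested genes called, with 87 genes or 2.12% at an unadjusted p under 0.05). With the block edgeR called 0 genes, with 151 (3.68%) passing unadjusted, and DESeq2 and limma voom called 0 as well. MIR23B differed by 0.066 on the log2 scale (SE 0.24, -0.42 to 0.55) and MIR27B by 0.043 (SE 0.26, -0.49 to 0.57), and the adjusted p from edgeR's quasi-likelihood test with Benjamini-Hochberg adjustment was 1.00 for both. On TMM-scaled CPM, MIR23B was higher with the inhibitor in 2 of 5 experiments and MIR27B in 3 of 5. On CPM of the total count MIR23B was higher in 3 of 5 and MIR27B in 4 of 5.

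Between the inhibitor group and VLDL, 0 of 2 members were called (0% of tested genes called, 91 genes or 2.22% at an unadjusted p under 0.05). With the block edgeR called 0 genes, with 177 (4.32%) passing unadjusted, and without it DESeq2 and limma voom called 0. MIR23B had the widest gap of the 3 comparisons, a log2 difference of 0.25 (SE 0.24, -0.23 to 0.74, adjusted p = 0.999 by edgeR's quasi-likelihood test with Benjamini-Hochberg adjustment) or 1.19-fold, higher in 4 of 5 experiments. MIR27B differed by 0.094 (SE 0.26, -0.43 to 0.62). The median log2 difference of the 291 tested miRNAs was 0.13 in this comparison, 0.12 for hydrolysis products against VLDL and -0.013 for the inhibitor against hydrolysis products, so the median miRNA lay above 0 in both comparisons with VLDL. The 3 comparisons share groups and are not independent of each other.

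The intervals narrowed when the experiment entered the model as a block. For MIR27B the inhibitor against VLDL then gave 0.078 (SE 0.096, -0.12 to 0.27), or a fold of 1.06 with an interval of 0.922 to 1.21. For MIR23B it gave 0.24 (SE 0.14, -0.04 to 0.53), with a fold interval of 0.972 to 1.44. By edgeR's quasi-likelihood test its p was 0.0899 unadjusted and 0.997 with Benjamini-Hochberg adjustment. These intervals leave room for modest changes of MIR23B in particular, and a missed threshold does not show that levels were equal.

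**Figure D4:**
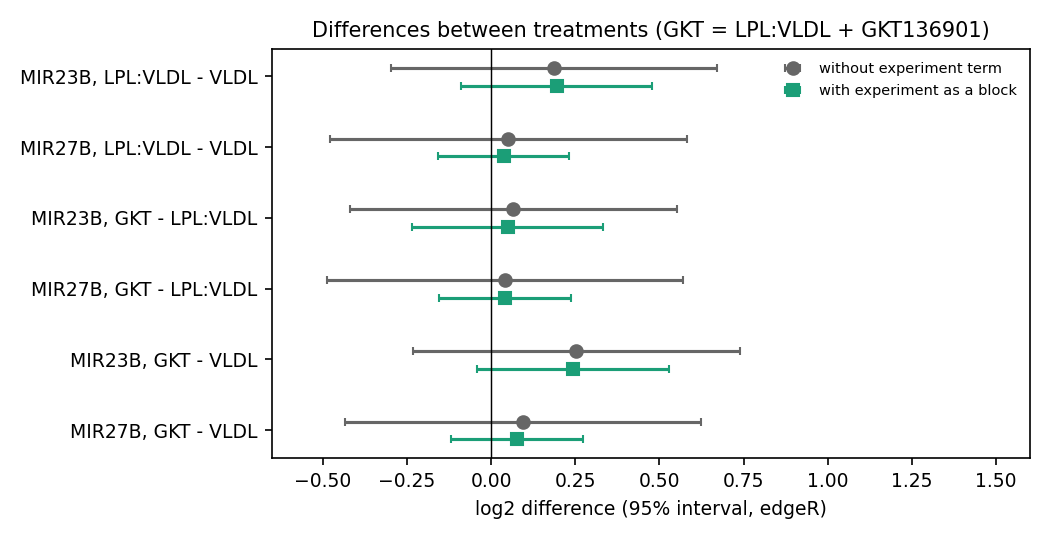
Log2 differences of MIR23B and MIR27B (horizontal axis) with 95% intervals for the 3 treatment comparisons, without and with the experiment as a block. Every interval spans 0, and each is narrower with the block.

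MIR27B differed strongly between experiments. Its TMM-scaled CPM was 440 ± 14.4 in experiment 2, 847 ± 1.75 in experiment 3, 912 ± 73.6 in experiment 4, 1051 ± 55.7 in experiment 5 and 1044 ± 51.0 in experiment 6 (SD, n = 3 each, 1 library per treatment). The 3 libraries of experiment 2 (424 to 452) all lay below the other 12 (829.7 to 1104). An F test of the 4 experiment terms in the edgeR model with treatment gave F = 30.7 and an adjusted p of 8.07e-08 (quasi-likelihood, Benjamini-Hochberg). By its p-value MIR27B ranked 13 of 291 miRNAs and 23 of 4099 genes. Experiment held 98.8% of the MIR27B variance within treatment groups for log2 TMM-scaled CPM, and 89.3% for log2 CPM of the total count. With 3 libraries per experiment, some share falls between experiments by chance alone.

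The call of MIR23B between experiments depended on scaling. Its TMM-scaled CPM was 60.6 ± 8.17 in experiment 2 and 87.8 ± 14.8, 100.2 ± 24.1, 97.1 ± 15.04 and 90.6 ± 10.6 in experiments 3 to 6 (SD, n = 3 each). All 3 libraries of experiment 2 (51.5 to 67.2) lay below the other 12 (70.8 to 126). The same edgeR quasi-likelihood test gave F = 4.90 and a Benjamini-Hochberg adjusted p of 0.0376. That call was lost without TMM factors (0.622), with library sizes taken from miRNA counts (0.866) and with no low-count filter (0.108), whereas MIR27B kept its call under all 3 (adjusted p from 2.89e-16 to 0.00077, edgeR).

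Both members were called for experiment, as were 11.1% of all tested genes and 38.5% of tested miRNAs, so a difference between experiments was common among miRNAs. Likewise 24.4% of tested miRNAs had all 3 libraries of experiment 2 below the other 12 on the TMM scale, against 4.64% of all tested genes. On CPM of the total count MIR27B still had experiment 2 lowest, at 512 to 593 against 646 to 1109, a pattern shared by 7.56% of tested miRNAs and 1.59% of all tested genes. MIR23B overlapped on that scale, at 67.5 to 89.7 against 67.8 to 129. Scaled to the miRNA counts alone in place of all counts, MIR27B of experiment 2 (1682 to 1963) overlapped the other experiments (1858 to 2372).

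Several properties of the libraries moved with experiment 2 beside this result. TMM factors were 1.16 to 1.34 in experiment 2 and 0.765 to 1.03 in the others, and miRNA genes held 30.2% to 32.7% of counts there and 30.8% to 48.7% elsewhere. The 18 myeloid markers summed to 80.7 to 125 CPM in experiment 2 and to 27.1 to 50.9 in the others. The endothelial list of 6 genes, of which MIR126 held nearly all counts, summed to 435 to 564 CPM in experiment 2 and to 701 to 1414 in the others. CDH5, KDR and VWF, defining endothelial genes, had 1, 1 and 2 counts in all. EGFL7 had 11, while PECAM1 had 154 and passed the filter on low counts. The part of these features in the MIR27B difference was not tested. Without experiment 2 neither member was called (MIR27B adjusted p = 0.274, MIR23B 0.971, edgeR quasi-likelihood test with Benjamini-Hochberg adjustment). Experiment then still held 88.7% of the MIR27B variance within groups and 12.4% of that of MIR23B for log2 TMM-scaled CPM. For log2 CPM of the total count the shares were 70.2% and 24.6%.

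The ratio of the members was lower in experiment 2, at 7.36 ± 1.28 (SD, n = 3), than in the other 12 libraries, at 10.4 ± 1.54. A permutation of experiments within treatment groups, added after the values were seen, gave an exact p of 0.0563 (smallest possible 6.94e-05) and 0.380 without experiment 2. The ratio was therefore not called different between experiments, so a difference between the members in how they varied by experiment was not shown. The SD of log2 levels within treatment groups was 0.52 for MIR27B and 0.35 for MIR23B, and after experiment means were removed it was 0.070 and 0.24. Counting error alone would give 0.017 for MIR27B and 0.054 for MIR23B.

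The imbalance of 2 neighbours transcribed together was compared with other adjacent miRNA genes on the same strand, within 10 kb, where both were tested. There were 30 such pairs, and MIR23B with MIR27B, at a log2 ratio per length of 3.27, ranked 13 by size of imbalance (median 3.08). The ratio varied with an SD of 0.30 over the 15 libraries, again rank 13 from the smallest (median 0.39). Among the 16 pairs with at least 100 counts per gene in every library it ranked 11 (median 0.26). MIR132 and MIR212 were nearly balanced at -0.43 with an SD of 0.18, and MIR30E exceeded MIR30C1 by 6.97. Neighbouring miRNA genes with unequal counts were thus usual in these libraries. Reads that map to several places were not counted, so a gene whose mature sequence is also made elsewhere can lose counts. How far this entered the pair ratios and their ranks was not tested.

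**Figure D5:**
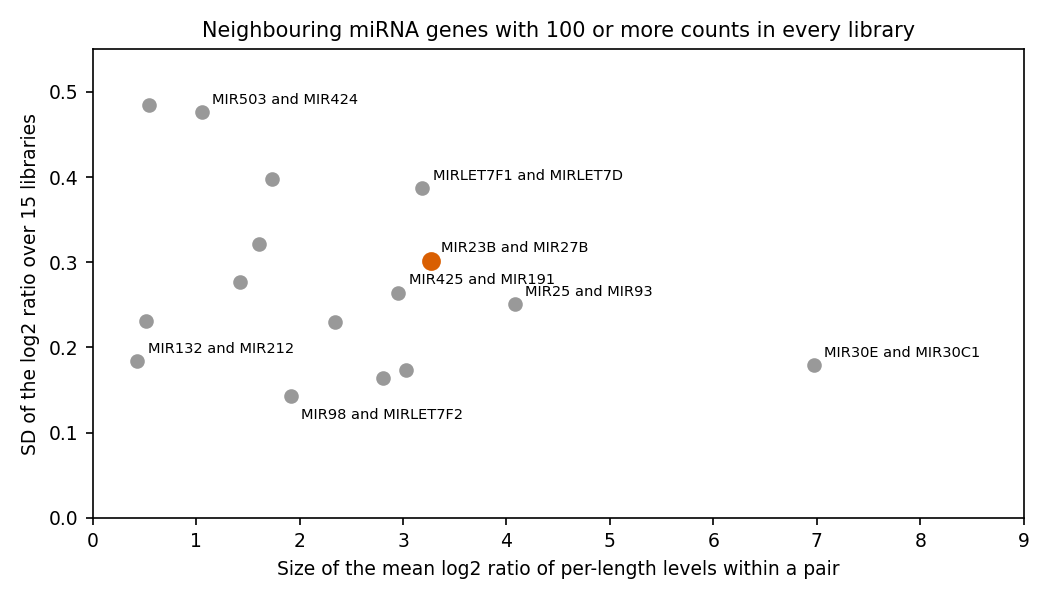
Size of the mean log2 ratio per length (horizontal axis) against its SD over 15 libraries (vertical axis) for the 16 adjacent miRNA pairs with at least 100 counts per gene in every library. MIR23B with MIR27B (orange) lies at 3.27 and 0.30, with 5 pairs at a higher SD.

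The genes whose levels most resembled each member's over the 15 libraries were different. For MIR27B the closest 5 were MIR30E (r = 0.982), MIR340 (0.979), MIR744 (0.975), MIR361 (0.974) and MIR10A (0.968), all miRNAs. For MIR23B they were MIR185 (r = 0.910), the tRNA gene TRR-CCT4-1 (0.872), MIR502 (0.866), MIR140 (0.866) and the lncRNA LOC112268133 (0.864). Of 4098 other tested genes, MIR27B ranked 31 in likeness to MIR23B (r = 0.788), and MIR23B ranked 116 in likeness to MIR27B. These correlations are descriptions over 15 libraries that share 5 experiments and TMM factors. After group means were subtracted the first place went to MIR361 for MIR27B (r = 0.994) and again to MIR185 for MIR23B (0.921).

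Messenger RNAs known as targets were present only as fragments. None was called in any treatment comparison, where 0% of all tested genes were called without the block. Of 12 miR-27 targets in lipid metabolism, 4 passed the filter, among them LPL, ABCA1 and NDST1, and 0 rose and 0 fell. Their median log2 differences were 0.049 for hydrolysis products against VLDL, -0.14 for the inhibitor against hydrolysis products and 0.25 for the inhibitor against VLDL, beside 0.0097, -0.019 and -0.0042 over all tested genes. ABCA1, the cholesterol exporter, stood at 1.00 ± 0.944, 1.88 ± 1.27 and 1.89 ± 0.986 TMM-scaled CPM in the VLDL, LPL:VLDL and GKT136901 groups (SD, n = 5 each). LPL, the lipase itself, stood at 5.32 ± 2.60, 3.52 ± 1.80 and 2.82 ± 1.09 in the same order.

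Of 5 targets of miR-23 and miR-24, 4 passed the filter, and 0 rose and 0 fell, with medians of -0.058, 0.16 and 0.17 in the same 3 comparisons. Of 13 genes of the miRNA machinery, 7 passed the filter, and 0 rose and 0 fell (medians 0.00088, 0.011 and 0.012). For both lists the share of all tested genes called was likewise 0%. AGO2, the Argonaute that slices targets, stood at 10.9, 10.9 and 11.02 TMM-scaled CPM, while DROSHA and DICER1 stood at 1.88, 1.87 and 2.11 and at 0.636, 0.83 and 1.68. At levels near 1 CPM such fragments cannot show a modest change.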

How the data were processed

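The values deposited are raw counts of reads for each gene. Per the file headers, featureCounts 2.0.6 summed them over each gene's exons, with no option set for strand, multiple mapping or overlapping genes. Per the submitters' processing notes, fastp 0.24.0, STAR 2.7.11b and hg38 were used; R 4.4.2, DESeq2 1.46 and edgeR 4.4.2 are listed with no stated purpose. Groups and experiments came from the labels. The counts of 4099 genes kept by filterByExpr (minimum count 10, minimum total 15; 99.664% of counts) were scaled by TMM and tested with edgeR 4.0.16 (R 4.3.3) by its quasi-likelihood F test, two-sided, in 1 model of the 3 groups with 12 residual degrees of freedom, with Benjamini-Hochberg adjustment and calls at an adjusted p under 0.05. The test was checked on simulated counts that held no difference between experiments. That check does not cover how the test behaves where experiments differ, as they did here. Ratios used counts + 0.5 and exact permutation tests (scipy 1.17.1).

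The labels give each replicate number 1 experiment, which pairs libraries across groups. Same-numbered libraries deviated together from their group means (r = 0.0664 to 0.378, median 0.115), against a median r of -0.07 and a highest r of 0.148 for other pairs, so the ranges overlap. Chi-square per degree of freedom between libraries of a group was 11.1 to 268, so none repeats another. Alternatives were the block, library size alone, miRNA library sizes, other filters, DESeq2 1.42.0, limma 3.58.1 voom and leaving out libraries. Named genes were the members, paralogs, overlapping and host genes, the 5 most similar genes to each member, and listed targets, machinery and markers. Values of some listed genes are not reported here. Members and lists were chosen with earlier results of these data known. Binomial intervals of the count ratio cover counting error only, while the intervals of log2 differences come from the edgeR fit and cover the scatter between libraries.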

Additional observations from a re-analysis of the deposited data

How the results depend on the processing

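Of 186 alternatives for the treatment differences of MIR23B and MIR27B, 166 kept their direction, 20 reversed it and 0 gave a call (lowest adjusted p 0.868, edgeR, DESeq2 or voom). Unadjusted p for MIR23B, inhibitor against VLDL, ran from 0.0040 to 0.66 over its 31 alternatives (edgeR, DESeq2 or voom). The reversals were in MIR27B and in MIR23B for the inhibitor against hydrolysis products; MIR23B kept its direction against VLDL in both comparisons under all 31 alternatives of each. For MIR27B, hydrolysis products against VLDL turned from 0.052 to -0.099 with library size alone, -0.085 with miRNA library sizes, -0.0038 with a stricter filter, and -0.095 with the replicate block and miRNA library sizes, a combination added after seeing the data. The inhibitor against VLDL turned from 0.094 to -0.032 and, with the block, -0.058 under miRNA library sizes. The 2 library-size scalings also moved the median of all tested genes. It went from 0.0097 to -0.11 under both for hydrolysis products against VLDL, and from -0.0042 to -0.16 under miRNA library sizes for the inhibitor against VLDL. MIR27B stayed above the median in these cases. For hydrolysis products against VLDL it lay below with the stricter filter (-0.0038 against a median of 0.033). MIR27B also lay below the median without VLDL replicate 1 (-0.11 against 0.013). So it did without LPL:VLDL replicate 3 (-0.034 against -0.0040), replicate 4 (-0.029 against 0.0049) or replicate 5 (-0.034 against -0.023). The same held with the block and without experiment 4 (-0.018 against 0.010). Leaving out a library or an experiment gave MIR27B log2 differences of -0.11 to 0.22 (hydrolysis products against VLDL), -0.13 to 0.22 (inhibitor against hydrolysis products) and -0.067 to 0.27 (inhibitor against VLDL), and MIR23B differences of 0.054 to 0.27, -0.070 to 0.19 and 0.11 to 0.40. The log2 ratio of the members ranged over -0.26 to -0.024, -0.13 to 0.11 and -0.25 to -0.055. With the replicate block, leaving out experiment 4 gave -0.018 for MIR27B in the first of these comparisons and -0.022 for MIR23B in the second, where leaving out experiment 6 gave -0.012. The cause of these reversals was not tested. Between experiments the adjusted p of MIR23B (0.0376) rose to 0.622 with library size alone, 0.866 with miRNA library sizes, 0.108 with no filter and 0.971 without experiment 2, and that of MIR27B to 0.274 without experiment 2. With the replicate block, edgeR and DESeq2 each called 1 gene for hydrolysis products against VLDL, and DESeq2 called 2 for the inhibitor against VLDL, leaving out an experiment gave 0 to 2 for the former, and the block changed no call of a member. Genes called between experiments fell from 455 to 145 without experiment 2, with fewer libraries in the model. Depth limits the target mRNA fragments near 1 CPM rather than MIR27B.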

Other observations

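Among 18 miRNAs known for roles in lipid metabolism, other than the cluster members, 10 passed the filter. In each treatment comparison 0% of all tested genes were called, and 0 of these 10 rose and 0 fell (edgeR's quasi-likelihood test with Benjamini-Hochberg adjustment). Their median log2 differences were 0.14 for hydrolysis products against VLDL (9 of 10 above 0), -0.028 for the inhibitor against hydrolysis products (4 of 10) and 0.097 for the inhibitor against VLDL (10 of 10). The corresponding medians of all 291 tested miRNAs were 0.12, -0.013 and 0.13, with 208, 137 and 205 above 0. Liver (3 genes) and erythroid (3 genes) markers were at 0 in all libraries, and the muscle list of 4 genes summed to 0.107 to 6.46 CPM of the total count.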
